A study of Mus musculus with 3 samples.

Results

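The genes described are 10 cell-surface molecules through which macrophages and other myeloid cells pass costimulatory or inhibitory signals. They are Cd80, Cd86, Icosl, Cd274, Pdcd1lg2, Cd276, Vsir, Havcr2, Cd200r1 and Sirpa. They were taken as a list of gene symbols by no rule on measured values, but earlier results of these data were known when they were chosen. All 10 were found among 55450 mouse genes in the deposited gene tables, of which 21951 are protein coding. The study sequenced polyadenylated RNA of macrophages differentiated from the marrow of C57BL/6J mice, a standard inbred line. By their description the cells received 100 ng/ml lipid A for 12 hours, were washed and left for 12 hours, and then met 100 ng/ml lipid A a second time for 180 minutes. Lipid A, the lipid portion of lipopolysaccharide from Gram-negative bacteria, is sensed by Toll-like receptor 4; other label fields call the agent lipoprotein A, a protein, and the sources do not settle which is right. The 3 samples form 1 group, replicates 1 to 3, and all carry the same donor record, with age and sex given as not collected. Unexposed cells and cells exposed once were not analysed here, so no value below is a response to the agent, and any p-value reflects only how these samples differ among themselves, which may be technical.

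A T cell that recognises antigen on a macrophage also reads a second set of signals from paired surface proteins. CD80 and CD86, of the B7 family, bind CD28, which promotes activation, and CTLA4, which restrains it, and ICOS ligand engages ICOS. PD-L1 (Cd274) and PD-L2 (Pdcd1lg2) bind PD-1, an inhibitory receptor, and B7-H3 (Cd276) and VISTA (Vsir) are B7 relatives with mainly inhibitory roles reported. TIM-3 (Havcr2), CD200R1 and SIRP alpha are receptors on the myeloid cell itself, and SIRP alpha receives the "do not eat me" signal from CD47.

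The gene tables held 23418690 to 37728915 expected counts per sample, of which 0.124% to 0.194% fell on entries that match no mouse gene. All 12 macrophage markers examined were at 1 TPM (a level scaled to transcript length and library size) or more in every replicate, with Lyz2, lysozyme, at 10782 ± 581 TPM (mean ± SD, n = 3, as throughout). Of 15 T and NK cell markers, 0 reached 1 TPM in all 3 replicates, and their summed level was 1.79, 3.03 and 1.45 TPM in replicates 1, 2 and 3. The 10 dendritic cell markers summed to 8.69 to 13.8 TPM, with Cd209a listed at 0. Of them 2 reached 1 TPM in all replicates, Batf3 at 5.64 ± 2.35 and Ccr7 at 3.66 ± 0.655 TPM. The 10 stromal and endothelial markers summed to 3.91 to 5.71 TPM, and 1, Pecam1, reached 1 TPM in all replicates. The 10 B cell markers summed to 20.6, 60.6 and 41.3 TPM, mostly Cd22, with Blk listed at 0. Of them 2 reached 1 TPM in all replicates, Cd22 and, at 2.63 ± 1.43 TPM, Cd79b. The 10 neutrophil markers summed to 12.5, 108 and 11.1 TPM, with Ly6g and Retnlg listed at 0. Of them 2, S100a9 and S100a8, reached 1 TPM in all replicates. Over all protein-coding genes 44.4% did. In RNA from a whole culture, fewer cells of a type and less RNA per cell cannot be told apart.

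Of the sequences of these genes, 4 pairs are shown, because the shares of transcript forms of 3 genes described below turn on them, and each pair shows where forms with and without a coding segment or exons part. All are read from GENCODE M21 transcripts of the mouse assembly mm10, 5′ to 3′ on the coding strand, and all bases shown are coding. Where a transcript holds an optional segment, its bases are in capitals with 24 bases on each side in lower case. Where the segment or exons are absent, and at the matching junction of the full form, the 3 bases on each side of the junction are in capitals.
Sirpa-201, with a 12-base segment at chr2:129627986-129627997 (+ strand): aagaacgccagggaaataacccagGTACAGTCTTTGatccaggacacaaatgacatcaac
Sirpa-214, without it: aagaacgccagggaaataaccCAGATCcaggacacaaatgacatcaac
Sirpa-214, junction into the first of the exons that the short form skips: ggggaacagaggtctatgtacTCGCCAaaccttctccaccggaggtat
Sirpa-209, short form junction that skips chr2:129615447-129615764 and chr2:129616223-129616558: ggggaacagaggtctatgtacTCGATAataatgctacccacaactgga
Cd80 full form, junction into the exon at chr16:38479064-38479345 (+ strand): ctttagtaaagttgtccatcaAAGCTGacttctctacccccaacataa
Cd80 short form, junction that skips this exon: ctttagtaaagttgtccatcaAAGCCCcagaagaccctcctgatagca
Vsir-201, with a 3-base segment at chr10:60368529-60368531 (+ strand): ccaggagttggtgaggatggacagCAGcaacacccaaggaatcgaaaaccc
Vsir-203, without it: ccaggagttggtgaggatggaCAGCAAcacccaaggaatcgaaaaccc
Each of these differences keeps the reading frame. The Sirpa exons add up to 654 bases, or 218 residues, the Sirpa segment to 12 bases and 4 residues, the Cd80 exon to 282 bases and 94 residues, and the Vsir segment to 3 bases and 1 residue.

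Of the 10 genes, 8 were at 1 TPM or more in all 3 replicates, beside 44.4% of all protein-coding genes. A mean of 100 TPM or more was reached by 2 of the 10, Sirpa and Cd274, beside 5.87% of protein-coding genes. The 8 genes spanned from 9.23 TPM (Havcr2) to 1291 TPM (Sirpa), and the other two, Cd276 and Pdcd1lg2, had means of 0.283 and 0.277 TPM from 5 to 9 counts per library. The median level of all 10 genes on the log2(TPM + 1) scale was 5.31 ± 0.07, against 0.42 over all protein-coding genes. The summed level of the 10 genes was 2127, 2083 and 2099 TPM in the 3 replicates, so the total varied little. Most of this total was Sirpa and Cd274, with means of 1291 and 529 TPM. Single genes varied by up to 2.09-fold between their highest and lowest replicate among the 8.

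**Figure D1:**
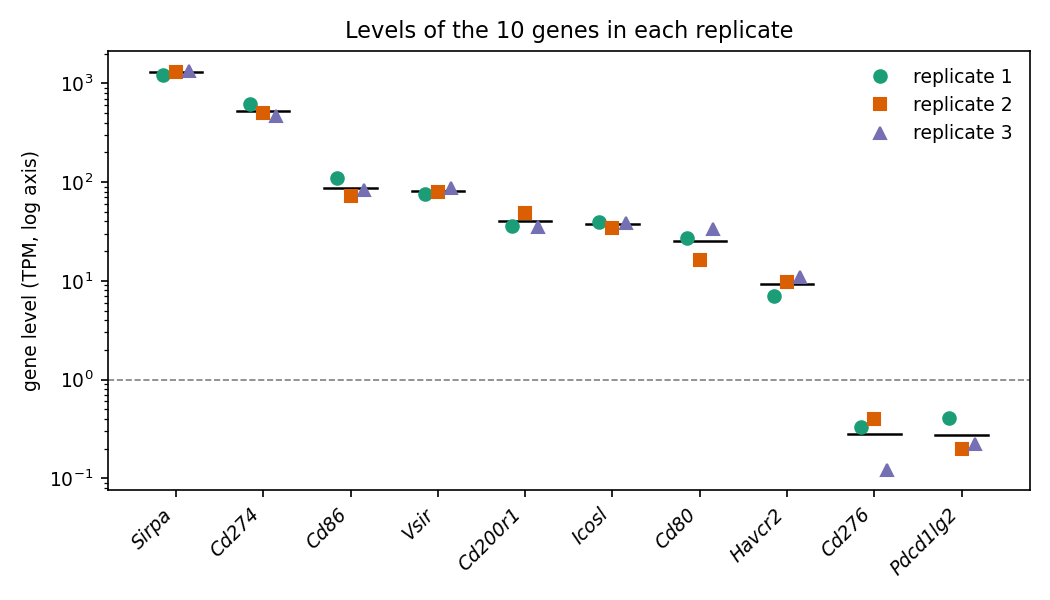
Deposited TPM of the 10 genes (log axis) in replicates 1 (circles), 2 (squares) and 3 (triangles), with the mean of 3 as a horizontal bar; the dashed line is 1 TPM. Sirpa and Cd274 lie highest at means of 1291 and 529 TPM, and Cd276 and Pdcd1lg2 lie under the line in all 3 replicates.

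Of the 3 genes of the set that encode ligands able to activate T cells, Cd86 was the most abundant. Cd86 (ENSMUSG00000022901.13, chr16:36603869-36666081, − strand) was at 109.6, 72.1 and 82.8 TPM in replicates 1, 2 and 3, a mean of 88.2 ± 19.3, and ranked 1453 of 21951 protein-coding genes. It was highest in replicate 1 and lowest in replicate 2. Cd80 (ENSMUSG00000075122.5, chr16:38455561-38496335, + strand), on the same chromosome, was at 26.84, 16.12 and 33.64 TPM, a mean of 25.5 ± 8.83, from 802, 684 and 1435 counts. It was lowest in replicate 2, and no Cd80 value reached any Cd86 value. Within each sample the log2 ratio of Cd86 to Cd80 was 2.03, 2.16 and 1.30, a mean of 1.83 ± 0.46 or 3.56-fold, with Cd86 higher in 3 of 3.

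Icosl (ENSMUSG00000000732.9, chr10:78069302-78083913, + strand), the ligand of the T cell receptor ICOS, was at 39.7, 34.3 and 39.0 TPM, a mean of 37.7 ± 2.92. Its 3 values lay close together, with replicate 2 lowest, and all were above all Cd80 values and below all Cd86 values. In the second set of tables described below, after rescaling, Icosl was above Cd80 in replicates 1 and 2. In replicate 3 Icosl was below Cd80 there, at 41.6 against 43.2 TPM. Relative to Cd86, its log2 ratio was −1.46, −1.07 and −1.09, a mean of −1.21 ± 0.22, so Icosl was 2.31-fold below Cd86. With 3 such ratios, the exact permutation test by sign flips (two-sided) cannot give a p under 0.25, so the ratios are given with their SD and were not tested.

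Among the inhibitory ligands, PD-L1 stood far above its paralogue PD-L2. Cd274 (ENSMUSG00000016496.7, chr19:29367455-29388095, + strand) was at 617, 506 and 466 TPM, a mean of 529 ± 78.1, and ranked 262 of 21951. It was highest in replicate 1, and its lowest value lay above every value of the other ligands. Pdcd1lg2 (ENSMUSG00000016498.10, chr19:29410919-29471161, + strand) was at 0.41, 0.20 and 0.22 TPM, from 9, 7 and 8 counts. Its 24 counts over 3 libraries have an exact 95% Poisson interval of 15.4 to 35.7, which covers counting error only. The log2 ratio of Cd274 to Pdcd1lg2 was 10.55, 11.31 and 11.05, a mean of 10.97 ± 0.38 or 2005-fold. It was 10.21 in the second set of tables described below and 8.69 with 1 TPM added to both genes, so the size of the fold is uncertain at these counts. The genes are neighbours on the same strand: 22.8 kb lie between them, with 0 annotated genes in the interval, and their starts are 43.5 kb apart.

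Cd276 (ENSMUSG00000035914.11, chr9:58524298-58555437, − strand), which encodes B7-H3, was also near the detection limit. Its counts were 8, 5 and 9, a total of 22 with an interval of 13.8 to 33.3, and its TPM values 0.33, 0.40 and 0.12. The order of TPM does not follow the order of counts, since 0.49 and 0.84 expected counts on short Cd276 transcripts of 434 and 346 bases made up 51.5% and 85.4% of its TPM in replicates 1 and 2. Relative to Cd274, its log2 ratio was −10.87, −10.31 and −11.92, a mean of −11.03 ± 0.82. The levels of Cd276 and Pdcd1lg2 overlapped, with means of 0.283 and 0.277 TPM.

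Vsir (ENSMUSG00000020101.14, chr10:60346851-60372684, + strand), which encodes VISTA, was at 75.6, 80.0 and 87.0 TPM, a mean of 80.9 ± 5.73. Its range lay inside that of Cd86, and Cd86 was the higher of the pair in 1 of 3 samples. Its log2 ratio to Cd274 was −3.03, −2.66 and −2.42, a mean of −2.70 ± 0.31, so Vsir was 6.51-fold below Cd274. Of the activating and inhibitory ligands together, only Cd274 exceeded 100 TPM in every replicate. Against Cd86 its log2 ratio was 2.49, 2.81 and 2.49, a mean of 2.60 ± 0.19 or 6.06-fold.

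Among the receptors on the macrophage, Sirpa was the most abundant of all 10 genes. Sirpa (ENSMUSG00000037902.18, chr2:129592835-129632228, + strand) was at 1214, 1315 and 1344 TPM, a mean of 1291 ± 67.9, and ranked 80 of 21951. Its values differed least between replicates, with a coefficient of variation of 5.26%, and all lay above all values of Cd274, the next gene. Cd47, which encodes the SIRP alpha ligand, was at 548, 554 and 555 TPM in the same libraries, and the log2 ratio of Sirpa to Cd47 was 1.15, 1.25 and 1.28, a mean of 1.22 ± 0.07 or 2.34-fold.

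Cd200r1 (ENSMUSG00000022667.18, chr16:44765736-44794978, + strand), the inhibitory receptor for CD200, was at 36.0, 49.0 and 35.3 TPM, a mean of 40.1 ± 7.67. It was highest in replicate 2, where Cd80, Cd86 and Icosl were lowest. Relative to Sirpa, its log2 ratio was −5.08, −4.75 and −5.25, a mean of −5.02 ± 0.25, or 32.5-fold lower. Of the 31-base sequences in Cd200r1 transcripts, 4.06% also occur in other genes, mainly its relatives Cd200r4 and Cd200r2, so reads there could be split between them. For the other 9 genes this share was at most 2.36% (Cd274).

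Havcr2 (ENSMUSG00000020399.14, chr11:46454935-46481255, + strand), which encodes TIM-3, was the lowest of the 8 expressed genes at 7.09, 9.65 and 10.96 TPM, a mean of 9.23 ± 1.97, from 278, 611 and 705 counts. Replicate 1 was lowest. Lgals9, which encodes its ligand galectin-9, was at 714, 820 and 905 TPM and was also lowest in replicate 1. The log2 ratio of Havcr2 to Lgals9 was therefore close between samples at −6.65, −6.41 and −6.37, a mean of −6.48 ± 0.15, or 89.1-fold lower.

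In order of mean TPM, the genes ran Sirpa, Cd274, Cd86, Vsir, Cd200r1, Icosl, Cd80, Havcr2, Cd276 and Pdcd1lg2. Of the 9 neighbouring pairs in this order, 3 overlapped between replicates: Cd86 with Vsir (1.09-fold), Cd200r1 with Icosl (1.06-fold) and Cd276 with Pdcd1lg2 (1.02-fold). The largest step was from Havcr2 to Cd276, 32.6-fold, followed by that from Cd274 to Cd86, 6.01-fold. In a second set of deposited tables, made from the reads without the transcriptome alignment and rescaled here to the same median in each library, Vsir stood 1.11-fold above Cd86 and Icosl 1.02-fold above Cd200r1, again with overlap. There Cd200r1 and Cd80 overlapped, with a 1.22-fold difference, and Pdcd1lg2 stood 2.06-fold above Cd276 without overlap.

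Without this rescaling the tables made from reads gave a different order of replicates for Cd274, at 399, 428 and 443 TPM, where the alignment tables fell from 617 to 466. The median log2 difference of those tables from the alignment tables over 9741 expressed protein-coding genes was −0.48, −0.19 and −0.03 in replicates 1, 2 and 3. In them the small RNA gene Mir6236, which is listed at 0 in the alignment tables, took 10.3%, 10.9% and 5.69% of TPM, and Klf10 took 10.1%, 0.113% and 0.130%. After rescaling, Cd274 was at 558, 487 and 451 TPM, highest in replicate 1 as in the alignment tables. Both genes were picked out after their values were seen.

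The spread of each gene between replicates was compared with that of genes of like abundance, by edgeR's quasi-likelihood dispersion with Benjamini-Hochberg adjustment. Of 12018 genes tested, 0% had excess variance at an adjusted p under 0.05, and 628, or 5.23%, had an unadjusted p under 0.05. The reference spread was fitted to these same genes, so the unadjusted share follows largely from the fit. With only 3 samples, the lack of passing genes does not show that excess spread is absent. Of the 10 genes 8 passed the low-count filter; 0 of them passed the adjusted test and 1, Cd80, had an unadjusted p under 0.05. By limma 0 genes passed after adjustment and 609 had an unadjusted p under 0.05, Cd80 again among them.

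Cd80 was at 35.0, 18.1 and 38.4 CPM (counts scaled to library size) after TMM scaling, with replicate 2 apart from the others. In the tables made from reads, after rescaling, Cd80 was at 29.5, 21.9 and 43.2 TPM. There replicate 2 was again lowest but did not stand apart, and replicate 3 was highest. Its biological coefficient of variation was 0.259, against 0.163 on the trend, with an edgeR quasi-likelihood p of 0.0204 and a Benjamini-Hochberg adjusted p of 0.849, which did not pass. Over the alternatives its adjusted p ranged from 0.206 to 0.993, and without replicate 2 the unadjusted p was 0.622. The summed neutrophil markers moved with this library, at 108 TPM in replicate 2 against 12.5 and 11.1, with S100a9 at 58.0 against 4.20 and 5.10 and S100a8 at 39.4 against 6.84 and 5.36; their part in the Cd80 value was not tested.

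Of the other expressed genes, Cd86 had an edgeR quasi-likelihood p of 0.105 (adjusted 0.959), and Sirpa the largest, 0.973 (adjusted 0.999). Coefficients of variation in TPM ran from 5.26% (Sirpa), 7.08% (Vsir) and 7.75% (Icosl) through 14.8% (Cd274), 19.1% (Cd200r1), 21.3% (Havcr2) and 21.9% (Cd86) to 34.6% (Cd80). The replicates did not share an order: replicate 1 was highest for Cd274, Cd86 and Icosl, replicate 2 for Cd200r1, and replicate 3 for Sirpa, Vsir, Cd80 and Havcr2.

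**Figure D2:**
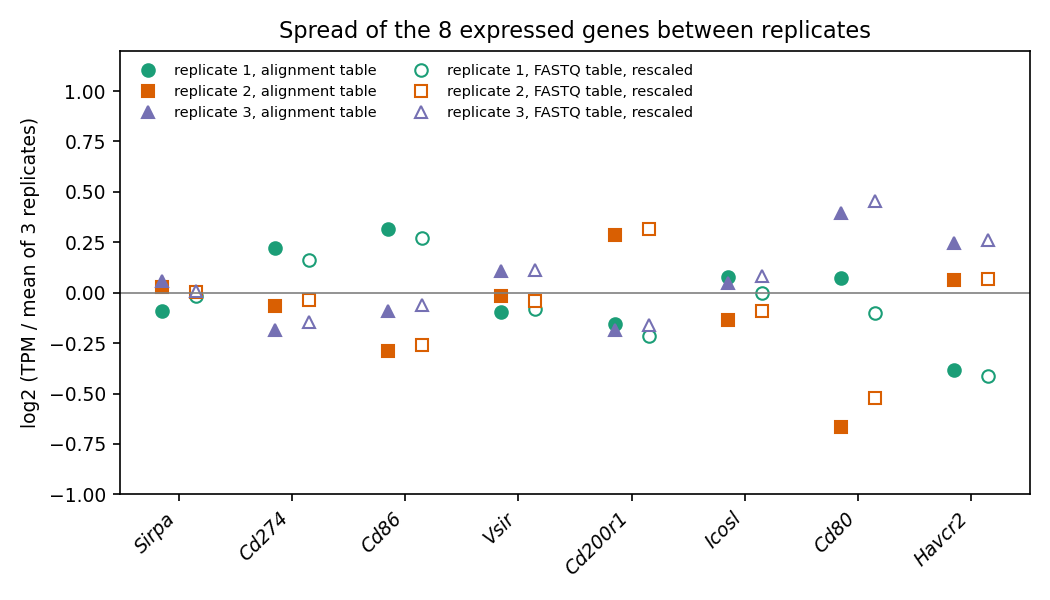
Level of the 8 expressed genes in each replicate as log2 of TPM over the mean of the 3, in the alignment tables (filled) and the tables made from reads after rescaling (open); 0 is the mean. Cd80 has the widest spread, with replicate 2 at 16.12 TPM against a mean of 25.5, and Sirpa the narrowest in both sets of tables.

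In GENCODE M21 the 10 genes have from 1 (Cd274) to 14 (Sirpa) transcripts. Havcr2 and Pdcd1lg2, with a pair each, had all their TPM in 1 of them in both sets of tables. The main transcript held 97.1% ± 0.669 of TPM for Cd200r1, 95.6% ± 1.13 for Cd86 and 91.4% ± 2.60 for Icosl. The Cd200r1 transcripts annotated for nonsense-mediated decay held 2.88% ± 0.669, the Cd86 transcripts with no coding sequence 4.398% ± 1.13, and the Icosl transcripts with a retained intron 10.3%, 9.15% and 5.41% in replicates 1, 2 and 3. The estimates assign reads to overlapping transcripts, and short transcripts reach high TPM from few counts, so the counts are given beside the smaller shares below.

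Sirpa was spread over the most transcripts. Sirpa-214 held 41.7%, 45.6% and 44.9% of its TPM, Sirpa-204 held 23.9%, 20.6% and 15.9%, and Sirpa-201 held 12.1%, 10.8% and 12.3%. The tables made from reads gave Sirpa-214 52.7% ± 8.56 and Sirpa-204 8.81% ± 3.15, so how reads were divided between these transcripts depended on the tables, while Sirpa-201 stayed at 11.3% ± 0.814. Sirpa-214 and Sirpa-204 have the same number of coding bases, 1527, and both lack the 12-base segment.

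Of the Sirpa transcripts 8 have a complete coding sequence. These were grouped by structure into 5 of a long form, 2 of a short form, and Sirpa-213, which has 516 coding bases. The long form, with all immunoglobulin exons, held 91.3%, 91.6% and 89.1% of the TPM of these 8. The short form, which joins the first immunoglobulin exon directly to the exon after the skipped pair, held 8.37%, 8.09% and 10.6%, a mean of 9.02% ± 1.37, from 1761, 2804 and 3139 counts. The tables made from reads gave 7.82% ± 1.45 for the short form, so the short form was the minority in all 3 replicates of both. In those tables the long form held 82.5%, 92.1% and 89.9%. Sirpa-213 was at 66.9, 16.5 and 14.2 TPM in them, against 3.29, 3.20 and 3.53 in the alignment tables, so its share depended on the tables.

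The 12-base segment lies in the part that encodes the cytoplasmic tail, which carries the tyrosine motifs that bind the phosphatases SHP-1 and SHP-2. Transcripts with it held 16.2%, 14.9% and 16.7% of the TPM of these 8 transcripts, a mean of 15.9% ± 0.981, and 14.3% ± 0.857 in the tables made from reads. The CAGATC junction, without the segment, was thus the major form. Noncoding and retained-intron Sirpa transcripts held 15.7% ± 2.05 of all Sirpa TPM but only 498, 851 and 853 of its 55498, 95077 and 94203 counts. Most of this was Sirpa-207, 400 bases long, with 13.5% ± 2.91 of TPM from 310, 617 and 752 counts.

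The main Cd80 transcript, the full form, held 62.3%, 71.2% and 73.5% of Cd80 TPM. An alternative full form, which starts at an upstream first exon, ends further downstream and has the same 918 coding bases, held 32.7%, 20.2% and 18.7%, and was highest in replicate 1 in the tables made from reads too, at 28.8%, 17.7% and 15.1%. The short form, which lacks the exon of the constant-type immunoglobulin domain, held 4.99%, 8.62% and 7.85%, from 10, 17 and 32 counts. In replicate 2, where Cd80 was lowest, the main transcript was at 11.5 TPM against 16.7 and 24.7, and the alternative full form at 3.26 against 8.77 and 6.29, so the low value was not limited to 1 of these transcripts.

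Vsir transcripts agreed less between the tables. Vsir-201 held 69.6% ± 5.40 of TPM in the alignment tables and 56.2% ± 9.21 in those made from reads, and Vsir-202, which starts at a downstream first exon and is 1290 bases long, 19.6% ± 3.59 and 28.5% ± 2.60. For the 3-base segment, Vsir-201, Vsir-202 and Vsir-203 were compared, which have 927, 681 and 924 coding bases. Vsir-202 and Vsir-203 leave the segment out and held 21.5%, 25.7% and 25.03% of the TPM of these 3, from 215, 622 and 1116 counts. Their share was 34.0% ± 1.96 in the tables made from reads. Most of it was Vsir-202, which alone held 21.5%, 24.4% and 18.1% in the alignment tables. Vsir-203 had 0, 125 and 710 counts there. The retained-intron transcript Vsir-205 ranged from 76 counts in replicate 1 to 21 in replicate 2 and 0 in replicate 3. Vsir overlaps Cdh23 on the opposite strand, as Cd274 overlaps AC119228.1, Cd276 Gm10657 and Pdcd1lg2 A930007I19Rik; whether counting used strand is not given in the sources used here, so reads of these pairs may not be separable.

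**Figure D3:**
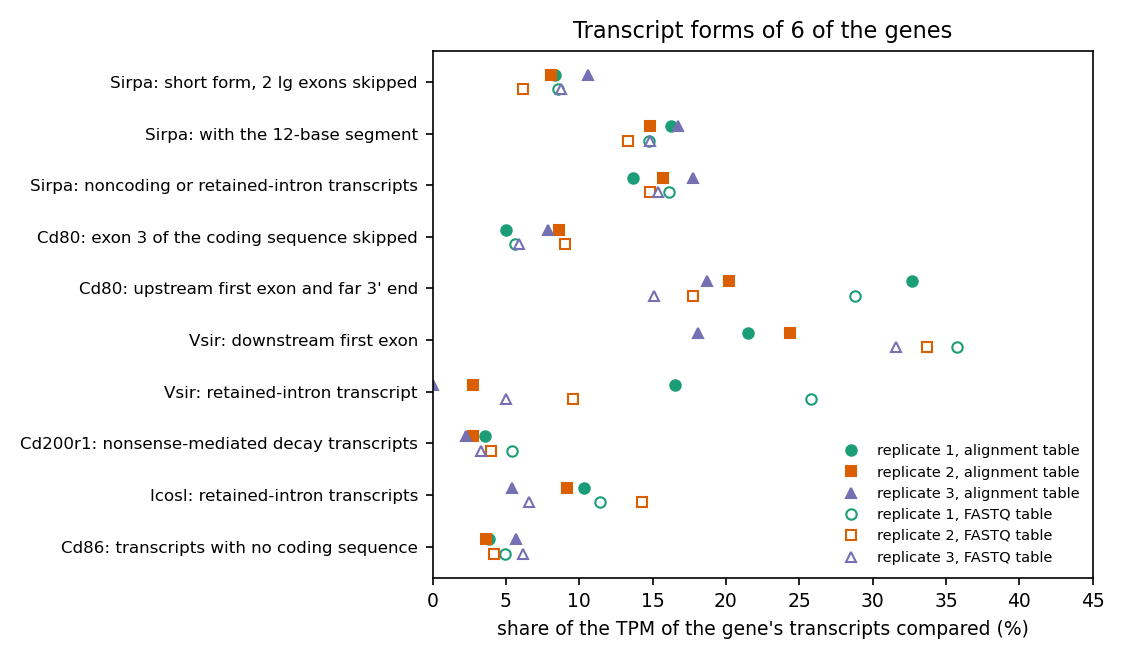
Share of TPM (%) held by 10 groups of transcripts of 6 of the genes, in replicates 1 to 3 of the alignment tables (filled) and the tables made from reads (open); the denominator is the TPM of the transcripts compared. The Sirpa short form lies between 6.15% and 10.6% in all 6 estimates, while the Vsir retained-intron transcript ranges from 0 to 25.8%.

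The partners of these molecules were read from short lists of related genes, whose counts are descriptions and were not tested against each other. Of 6 lymphocyte receptors of the ligands, 2 were at 1 TPM or more in all replicates, beside 44.4% of all protein-coding genes: Selplg, which encodes PSGL-1, a reported VISTA partner, at 209.1 ± 18.9 TPM, and Cd28. Cd28, the receptor of CD80 and CD86 known from T cells, was at 19.2, 25.6 and 25.2 TPM, from 1253, 2698 and 2700 counts, lowest in replicate 1. Among T cell receptor components in the same libraries, Cd247, the zeta chain that NK cells also use, was at 1.01, 0.14 and 0.73 TPM from 22, 5 and 26 counts, and Trac had 0, 4 and 0 counts. Cd3e, named after its values were seen, had 0, 1 and 0 counts. Igsf11 was at 0.190 TPM. Ctla4 and Pdcd1, named after their values were seen, had 0 counts in all 3 libraries; 0 counts leave room for 3, an upper limit of 0.128, 0.0815 and 0.0796 CPM in replicates 1, 2 and 3.

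Of 7 ligands of the receptors, 6 were at 1 TPM or more in all replicates, beside 44.4% of all protein-coding genes. They were led by Lgals9 (813 ± 95.7 TPM), Cd47 (552 ± 3.88) and Thbs1, thrombospondin 1, which also binds CD47 (109 ± 35.8). Sftpd, the surfactant protein reported to bind SIRP alpha, named after its values were seen, had 0 counts. Cd200, the CD200R1 ligand, picked out after its values were seen, was listed at 22.5, 14.3 and 26.8 TPM from 289, 273 and 492 counts. Of that level 12.3, 6.93 and 14.1 TPM came from a 281-base noncoding Cd200 transcript with 11, 9 and 15 counts, and its main coding transcript was at 7.83, 4.36 and 7.82 TPM.

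The intracellular partners of the inhibitory receptors were all present, 10 of 10 at 1 TPM or more, beside 44.4% of all protein-coding genes. Their median was 6.23 ± 0.02 on the log2(TPM + 1) scale, against 0.42 over all protein-coding genes. The adaptor Fyb was at 726 ± 75.3 TPM, Ptpn6, which encodes the phosphatase SHP-1, at 328 ± 40.9, and the kinase Lyn at 240.5 ± 35.7. Of 5 genes that govern PD-L1 protein turnover, 4 were at 1 TPM or more, beside the same 44.4%. The 3 highest were Cops5, a deubiquitinase subunit (88.5 ± 2.26), Cmtm6, which protects PD-L1 from degradation (70.2 ± 8.12), and the ubiquitin ligase Stub1 (53.6 ± 8.27). These are RNA levels and do not measure surface protein.

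Other families were read in the same way, beside the share of 44.4% over all protein-coding genes. Of 6 further B7, butyrophilin and partner genes, 1 was at 1 TPM or more, Tnfrsf14, which encodes the receptor HVEM, at 210 ± 16.7 TPM, while Btla was at 0.343 and Btnl2 at 0.0767 TPM. Of 8 TNF-type costimulators, 4 were, a share near that of all protein-coding genes, led by Cd40 at 431, 395 and 823 TPM, Tnfsf15 at 77.6, 30.7 and 68.3, and Tnfsf9, the 4-1BB ligand, at 29.9, 14.6 and 32.8. All 3 were lowest in replicate 2, as Cd80 was; the rule for naming them used mean level alone, and the shared order was noticed afterwards. Adhesion and nectin costimulators were at 1 TPM or more in 8 of 8, with Slamf7 at 932 ± 37.0, Icam1 at 566 ± 58.6 and Ly9 at 558 ± 76.7 TPM.

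Of 9 close relatives of the receptors, 4 were at 1 TPM or more, the same share as over all protein-coding genes, 44.4%. Cd200r4, an activating relative of Cd200r1, was at 104 ± 19.3 TPM, above Cd200r1 in all 3 samples, and Sirpb1c and Sirpb1b, activating relatives of Sirpa, were at 8.07 ± 5.82 and 6.10 ± 3.31 TPM. Of 10 other inhibitory myeloid receptors, 10 were at 1 TPM or more, with Pirb at 575 ± 55.2, Clec12a at 237 ± 34.6 and Lilrb4a at 862, 424 and 203.1 TPM. Lilrb4a, Sirpb1c and Sirpb1b were each highest in replicate 1, and Lilrb4a spread more than any of the 8 expressed genes.

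**Figure D4:**
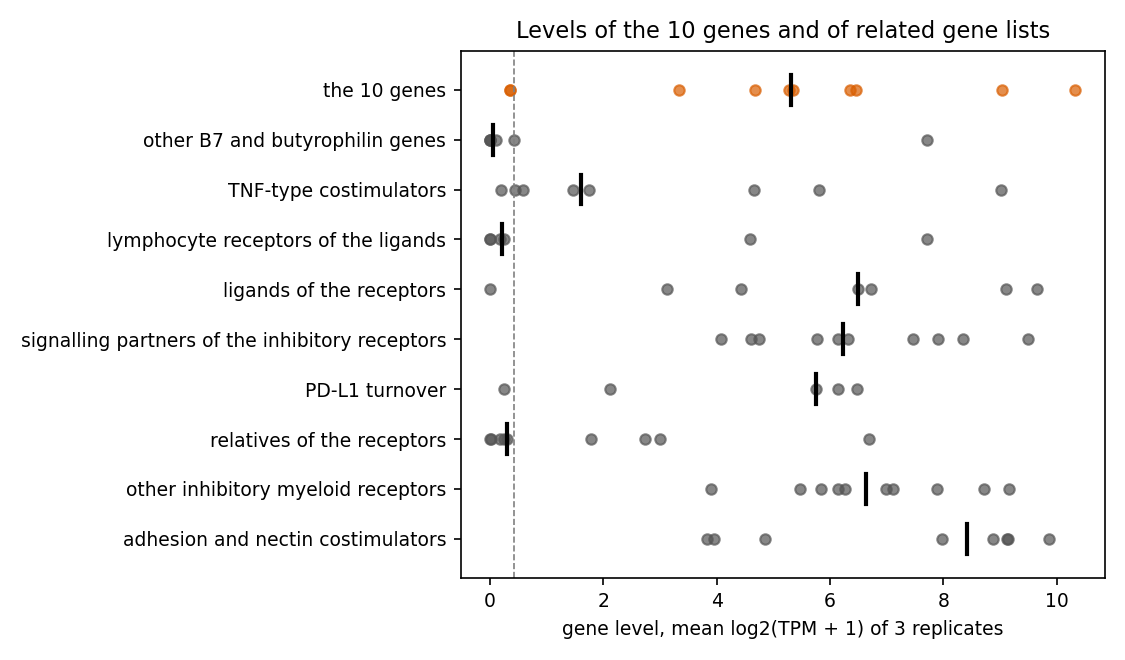
Mean log2(TPM + 1) over 3 replicates of each gene (points) in the set of 10 and in 9 lists of related genes, with the median of each list as a black bar; the dashed line is the median of all protein-coding genes, 0.42. The 10 genes have a median of 5.31, and the adhesion and nectin list the highest median, 8.42.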

How the data were processed

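Polyadenylated RNA of 3 samples in 1 group was analysed, with replicate numbers from the labels. Starting RNA was 1 µg per library and the stated size range 250 to 400, per the labels. Per the file headers, the deposited alignment tables hold expected counts and TPM per gene and transcript, and the tables made from reads (FASTQ files) hold estimated counts and TPM per transcript. The file lists deposited with the samples name assembly mm10 and annotation M21; which programs made the values is not given in the sources used here. Total expected counts were 23418690, 36863611 and 37728915.

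Levels are the deposited TPM, and those made from reads were summed per gene. Rescaling divided them in each sample by their median ratio to the alignment TPM over expressed protein-coding genes. Expected counts were rounded for edgeR 4.0.16 (R 4.3.3, filterByExpr, TMM, intercept only). The F of the quasi-dispersion over its trended prior was tested one-sided, with Benjamini-Hochberg adjustment at 0.05, and was checked on simulated data. The simulation gave every gene the trended dispersion, without further variation between genes. It therefore does not measure how well the test performs on these data. Alternatives used limma 3.58.1 and DESeq2 1.42.0 size factors. Tables and figures were made with pandas 2.3.3, scipy 1.17.1, numpy 2.4.6 and matplotlib 3.10.9 in Python 3.11.15. Named genes are the 10, those of 9 ratios, the 3 of highest mean TPM in each of 9 pathway lists, and any list gene passing the variance test. In the 6 marker lists only some of the 3 highest are named. Other genes, and markers named for lying at or near 0, were chosen after their values were seen. The 10 genes and the lists were chosen with earlier results of these data known. Transcripts of 10% or more of a gene's TPM in either set of tables are described. Intervals and floors cover counting error only.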

Additional observations from a re-analysis of the deposited data

How the results depend on the processing

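Each of the 9 ratios had the same direction in all 3 replicates, so leaving out 1 replicate in turn could not change it. With 3 replicates, leaving 1 out also cannot move a mean by 1 SD. It therefore shows nothing about the stability of ratios, levels and shares. Of the 10 genes 8 were at 1 TPM or more under every alternative run, including 0.5 TPM in place of 1. In the alignment tables the lowest value among these 8 was 7.09 TPM, and Cd276 and Pdcd1lg2 did not exceed 0.41 TPM. A cut of 0.5 TPM or leaving out a replicate therefore could not change this count. Genes with excess variance numbered 0 under TMM, DESeq2 size factors, limma and each leave-one-out fit, and 143 of 20269 with no low-count filter, of which 0 were among the 10; that setting tests more genes, and the cause was not tested further. The log2 ratio of Cd274 to Pdcd1lg2 was 10.21 in the tables made from reads and 8.69 with 1 TPM added to both genes, and that of Cd276 to Cd274 was −8.69 with 1 TPM added, a setting that pulls ratios of genes under 1 TPM toward 0. No ratio changed direction in the tables made from reads, and adding 1 TPM to both genes cannot change the direction within a sample. The tables made from reads moved 4 of 10 transcript shares and 7 of 9 list medians by more than 1 SD (lymphocyte receptors from 0.21 to 0.63, signalling partners from 6.23 to 5.92). These list medians were taken without rescaling. They therefore include the median log2 differences between the tables of −0.48, −0.19 and −0.03 in replicates 1, 2 and 3. A pseudocount of 0.1 moved 4 list medians, the largest being lymphocyte receptors to −1.98, other B7 genes to −2.92 and receptor relatives to −1.75, all lists with a median gene under 1 TPM. Rescaling, chosen after seeing the data, gave means of 92.5 TPM for Vsir and 0.436 for Pdcd1lg2; unscaled values made from reads were 423 TPM for Cd274, 33.7 for Icosl and 1088 for Sirpa. The variance test has 3 samples of 1 donor record, Cd276 and Pdcd1lg2 rest on under 10 counts per library, and no control condition was analysed. No paired analysis was possible because there is 1 group.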
